A study of Mus musculus with 8 samples.

Results

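The genes described here are Atf4, which encodes activating transcription factor 4, and 9 of the genes that this factor is known to switch on when cells lack amino acids or are under other stress. The targets are Asns, Psat1, Phgdh, Slc7a5, Ddit3, Trib3, Chac1, Sesn2 and Fgf21. They were taken by name, and all 10 were found by symbol on 14 of the 25697 probes of an Illumina bead array. They are 10 of the 16593 genes measured. The brightest probe of a gene, by its mean over the 8 arrays, stands for the gene unless another probe is named. Both groups are tibialis anterior muscles, a fast muscle of the lower leg, of male C57BL/6 mice aged 8 weeks, 4 muscles in each group. The spermine oxidase muscles had received a plasmid for spermine oxidase 7 days earlier, and the control muscles a control plasmid, so that every muscle in the series had been transfected. Spermine oxidase breaks down the polyamine spermine and releases hydrogen peroxide. The promoter of the plasmids, the share of fibres that took them up and the number of mice are not stated in the labels, so the spread behind each p-value is that between these samples and may be technical in part. Values are log2 signals as deposited, and every difference is spermine oxidase minus control with its standard error from limma unless stated otherwise. The muscle RNA is that of the whole tissue, so fewer cells of a type and less RNA per cell cannot be told apart.

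ATF4 is the main effector of the integrated stress response. Kinases that sense missing amino acids, misfolded protein, viral RNA or lack of heme phosphorylate the initiation factor eIF2, which slows translation in general but lets the Atf4 message be translated more. The level of ATF4 protein is thus set largely at translation, and the array reads only its mRNA. In skeletal muscle ATF4 is known to promote fibre atrophy and the release of the hormone FGF21.

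ATF4 binds, together with C/EBP family proteins, a composite element whose core is written TGATGNAA. This core was searched on both strands, with no overlap between matches, in the RefSeq promoter windows (GRCm38.p6), which run from 250 bases before to 50 bases after the start of a gene. A window was found for 9 of the 10 genes, and Slc7a5 is the gene without one. The core was present in 4 of these genes, Asns, Fgf21, Chac1 and Trib3, against 4.51% of the 27025 genes with a window and 3.97% of all 32851 windows. Asns read it on the gene's own strand, 23 to 16 bases before the start, as TGATGAAA. Fgf21 and Chac1 read TGATGCAA on the opposite strand, and Trib3 read TGATGTAA on the opposite strand, just after its start. The 250 bases before the start of Asns, Fgf21 and Chac1 are shown because these 3 genes carry the core upstream and their mRNA did not all differ in the same direction. Asns and Fgf21 were lower in spermine oxidase muscles and Chac1 was higher. Capitals mark the core, which appears as TTGCATCA where it lies on the opposite strand. The stretches are chr6:7693210-7693459 for Asns on the minus strand, chr7:45615491-45615740 for Fgf21 on the minus strand and chr2:119350992-119351241 for Chac1 on the plus strand.
Asns: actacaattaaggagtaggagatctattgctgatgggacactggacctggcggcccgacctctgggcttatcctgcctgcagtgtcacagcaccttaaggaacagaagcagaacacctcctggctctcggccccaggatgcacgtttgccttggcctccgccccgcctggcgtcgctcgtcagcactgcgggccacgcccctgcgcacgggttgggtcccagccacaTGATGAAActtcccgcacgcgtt
Fgf21: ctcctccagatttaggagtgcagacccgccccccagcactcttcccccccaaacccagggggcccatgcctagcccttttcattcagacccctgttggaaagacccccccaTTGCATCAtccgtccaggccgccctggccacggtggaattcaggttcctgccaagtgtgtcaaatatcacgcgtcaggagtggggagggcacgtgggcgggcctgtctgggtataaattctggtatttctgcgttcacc
Chac1: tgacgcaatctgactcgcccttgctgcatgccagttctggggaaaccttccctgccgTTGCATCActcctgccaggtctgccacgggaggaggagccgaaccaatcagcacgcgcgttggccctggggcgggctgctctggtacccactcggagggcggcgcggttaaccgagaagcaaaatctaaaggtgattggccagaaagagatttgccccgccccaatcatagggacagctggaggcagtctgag
A match is a run of letters and does not show that the factor binds there.

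Atf4 mRNA was higher in spermine oxidase muscles, while Asns, Psat1, Slc7a5 and Fgf21 were lower in every one of them than in any control muscle. Chac1 went the way of Atf4 in the means, and Ddit3 the way of Asns. Phgdh, Trib3 and Sesn2 lay at the bottom of the scale. None of the 10 reached the limma threshold, an adjusted p of 0.05 over all genes, which 0% of the 16593 genes reached, and the adjusted p-values of the 10 ran from 0.218 to 0.881. At an unadjusted p under 0.05 there were 7 of the 10, 1 higher and 6 lower, against 11.0% of all genes, with 6.33% higher and 4.72% lower. The groups did not overlap for 6 of the 10, all of them lower in spermine oxidase muscles, against 6.18% of all genes in either direction and 2.51% in that direction. The 6 lower genes were the same in both counts, namely Asns, Psat1, Slc7a5 and Fgf21, and also Phgdh and Trib3 at the bottom of the scale. The median of the 9 targets differed by -0.27, and that of all genes by -0.00064. Members were chosen with earlier results of these data known, so these counts describe them and are no test of the group.

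The factor itself read 10.42, 10.42, 10.58 and 10.21 in spermine oxidase muscles 1 to 4, against 10.04, 10.25, 10.11 and 10.01 in control muscles 1 to 4. The groups overlapped narrowly, because spermine oxidase muscle 4 lay just under control muscle 2. Atf4 averaged 10.41 ± 0.15 and 10.10 ± 0.11 (SD, n = 4 each), which is 1.23-fold higher in spermine oxidase muscles. The log2 difference was 0.30 ± 0.08, with a limma adjusted p = 0.272. Atf4 has a single probe on the array.

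**Figure D1:**
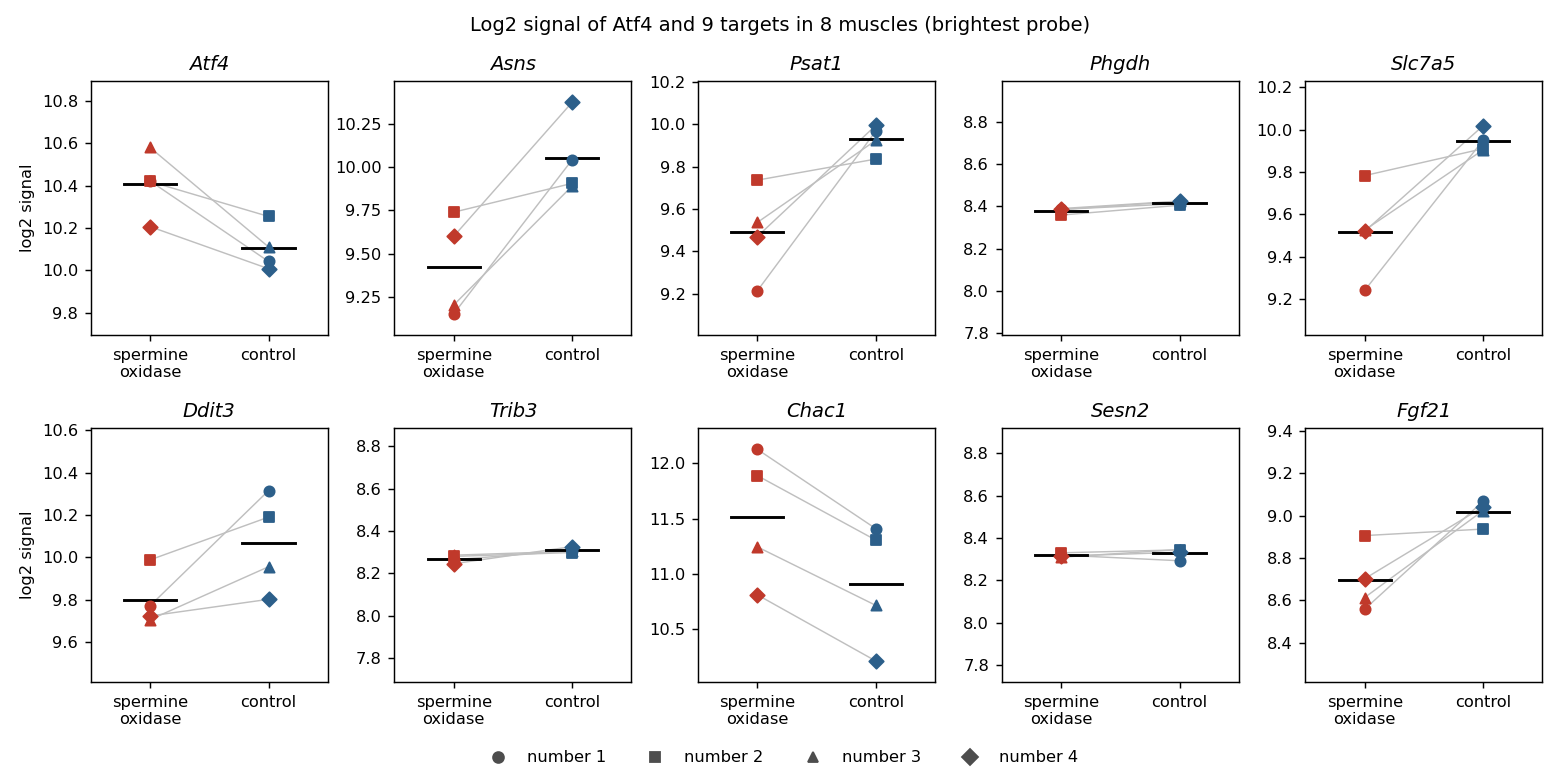
Log2 signal (vertical axes) of Atf4 and the 9 targets on the brightest probe, with spermine oxidase muscles left and control muscles right in each panel. Marker shapes give the number of the muscle, grey lines join muscles of equal number and black bars are group means. Asns, Psat1, Slc7a5 and Fgf21 are lower in all 4 spermine oxidase muscles than in any control muscle, and Phgdh, Trib3 and Sesn2 lie between 8.25 and 8.42.

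Among the enzymes of amino acid synthesis, Asns, the asparagine synthetase, had the widest difference. It read 9.15, 9.74, 9.20 and 9.60 in spermine oxidase muscles 1 to 4, against 10.04, 9.91, 9.89 and 10.37 in control muscles 1 to 4. Spermine oxidase muscle 2 was the highest of its group, and control muscle 4 stood above the other controls. The means were 9.42 ± 0.29 and 10.05 ± 0.22 (SD, n = 4 each), 1.55-fold lower in spermine oxidase muscles, with a difference of -0.63 ± 0.16 and a limma adjusted p = 0.254. Its second probe, ILMN_3006123, also separated the groups, by -0.33 ± 0.07, at 8.55 ± 0.14 in spermine oxidase muscles and 8.88 ± 0.08 in control muscles. The third, ILMN_2636755, lay at the floor of the scale, at a mean of 8.25, and differed by -0.015 ± 0.02.

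Psat1 encodes phosphoserine aminotransferase, the middle enzyme of serine synthesis. Its signal was 9.21, 9.74, 9.54 and 9.47 in spermine oxidase muscles 1 to 4, against 9.97, 9.84, 9.92 and 9.995 in control muscles 1 to 4. No value overlapped, and spermine oxidase muscle 1 was the lowest. Psat1 averaged 9.49 ± 0.22 and 9.93 ± 0.07 (SD, n = 4 each), 1.36-fold lower, with a difference of -0.44 ± 0.10 and a limma adjusted p = 0.222. Phgdh, the dehydrogenase that opens the same pathway, was close to the floor. It read 8.36 to 8.39 in spermine oxidase muscles and 8.41 to 8.42 in control muscles, and the groups were apart by a difference of only -0.037 ± 0.02 (limma adjusted p = 0.434). So close to the floor, the array may carry little or no signal of the gene, and the value for Phgdh is not comparable in size with that of Psat1.

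Slc7a5 encodes LAT1, the light chain of a carrier that brings leucine and other large neutral amino acids into the cell. It read 9.24, 9.78, 9.53 and 9.52 in spermine oxidase muscles 1 to 4, against 9.95, 9.91, 9.90 and 10.02 in control muscles 1 to 4. The order of the spermine oxidase muscles was the same as for Psat1, with muscle 1 lowest and muscle 2 highest. Slc7a5 averaged 9.52 ± 0.22 and 9.95 ± 0.05 (SD, n = 4 each), 1.35-fold lower, with a difference of -0.43 ± 0.10 and a limma adjusted p = 0.229. Its partner chain Slc3a2 lay near the floor, at 8.36 in spermine oxidase muscles and 8.33 in control muscles, and differed by 0.029 ± 0.03.

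Fgf21, a hormone that stressed muscle and liver release, had the smallest limma p of the 10. Its values were 8.56, 8.91, 8.61 and 8.70 in spermine oxidase muscles 1 to 4, against 9.07, 8.94, 9.02 and 9.04 in control muscles 1 to 4. Spermine oxidase muscle 2 came within 0.031 of control muscle 2, the closest approach of the groups. Fgf21 averaged 8.70 ± 0.15 and 9.02 ± 0.06 (SD, n = 4 each), a difference of -0.32 ± 0.07 with a limma adjusted p = 0.218. This signal is low on the array, where the median of all values is 8.33, and the change of the mRNA may be understated there.

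Chac1, an enzyme that breaks down glutathione, had the widest spread within each group of the 10 genes. It read 12.13, 11.89, 11.25 and 10.81 in spermine oxidase muscles 1 to 4, against 11.41, 11.31, 10.72 and 10.21 in control muscles 1 to 4. The groups overlapped widely, yet within each group muscles 1 and 2 were high and muscles 3 and 4 low. Chac1 averaged 11.52 ± 0.60 and 10.91 ± 0.56 (SD, n = 4 each), 1.52-fold higher in spermine oxidase muscles, with a difference of 0.61 ± 0.36 and a limma adjusted p = 0.603. With the number as a replicate block, for which no pairing is established, its limma adjusted p was 0.0159.

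Ddit3 encodes CHOP, a transcription factor of prolonged stress. Its signal was 9.77, 9.99, 9.70 and 9.72 in spermine oxidase muscles 1 to 4, against 10.31, 10.19, 9.95 and 9.80 in control muscles 1 to 4. Spermine oxidase muscle 2 lay above control muscles 3 and 4, so the groups overlapped. Ddit3 averaged 9.80 ± 0.13 and 10.06 ± 0.23 (SD, n = 4 each), with a difference of -0.27 ± 0.12 and a limma adjusted p = 0.459. The second probe, ILMN_2927373, had the same sign at -0.15 ± 0.08. Trib3, a pseudokinase that dampens ATF4 and AKT signalling, read 8.25 to 8.29 in spermine oxidase muscles and 8.30 to 8.33 in control muscles. Its difference of -0.040 ± 0.02 (limma adjusted p = 0.427) lies at the floor, under the median of all values. Sesn2, a leucine sensor that restrains the growth kinase complex TORC1, read 8.31 to 8.33 in spermine oxidase muscles and 8.29 to 8.35 in control muscles, also at the floor, with a difference of -0.010 ± 0.02 (limma adjusted p = 0.881).

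**Figure D2:**
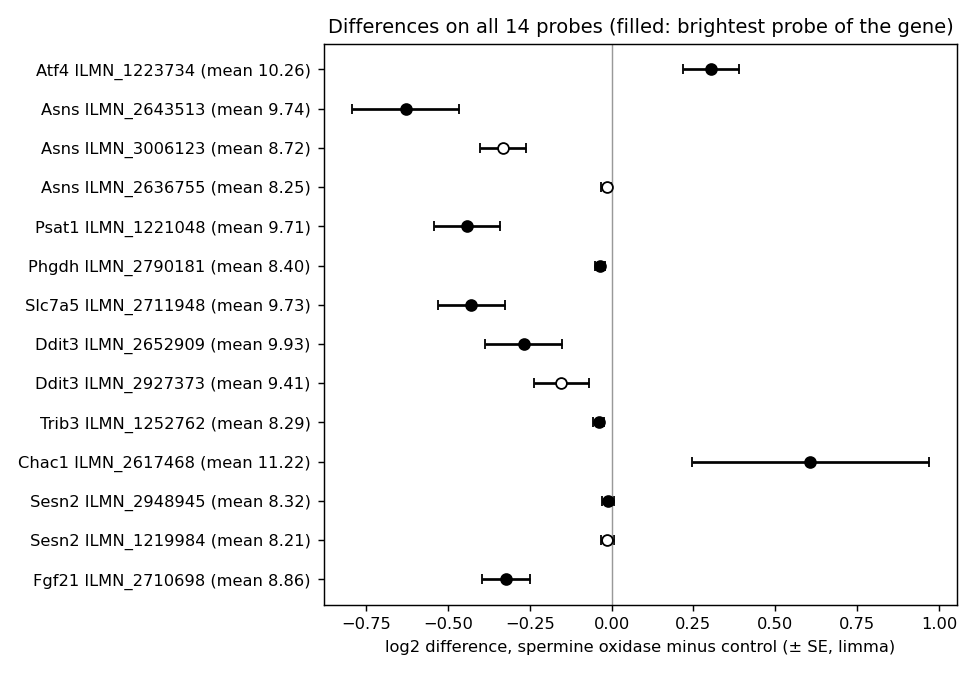
Log2 difference (horizontal axis, spermine oxidase minus control, bars ± SE from limma) on each of the 14 probes, with the mean over the 8 arrays in the row label and filled points for the brightest probe of a gene. Atf4 (0.30) and Chac1 (0.61) lie above 0, and the 12 other probes lie below 0, those with a mean signal under 8.5 by less than 0.05.

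Set against the factor within each array, most targets differed from Atf4 in the opposite sense. The log2 value of a target less that of Atf4 was lower in all 4 spermine oxidase muscles than in any control muscle for 6 of the 9 targets, namely Asns, Psat1, Slc7a5, Ddit3, Trib3 and Fgf21. Atf4 itself was higher, and 19.4% of all the other 16592 genes also separated the groups in this measure, in either direction or downward. The difference of the differences was -0.93 ± 0.25 for Asns, -0.75 ± 0.15 for Psat1, -0.73 ± 0.15 for Slc7a5, -0.63 ± 0.14 for Fgf21 and -0.57 ± 0.15 for Ddit3. Each of these includes the 0.30 by which Atf4 itself was higher, so any lower target exceeds 0.30 in size. For Chac1 it was 0.30 ± 0.38, with overlap of the groups. Trib3, Phgdh and Sesn2 came out at -0.31 to -0.34, which is close to the change of Atf4 alone. The standard errors in this paragraph come from the variances within each group and not from limma.

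Muscle by muscle, the 4 lower targets varied together, while Atf4 did not follow their order. The mean deviation of Asns, Psat1, Slc7a5 and Fgf21 from their own averages over the 8 muscles was -0.47, 0.032, -0.29 and -0.19 in spermine oxidase muscles 1 to 4, against 0.25, 0.14, 0.18 and 0.35 in control muscles 1 to 4. Spermine oxidase muscle 2 stood nearest to the controls. Atf4 deviated by 0.17, 0.16, 0.32 and -0.049 in spermine oxidase muscles 1 to 4, against -0.21, -0.00092, -0.14 and -0.25 in control muscles 1 to 4. Thus spermine oxidase muscles 1 and 2 had the same Atf4 level but lay furthest apart for these 4 targets.

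**Figure D3:**
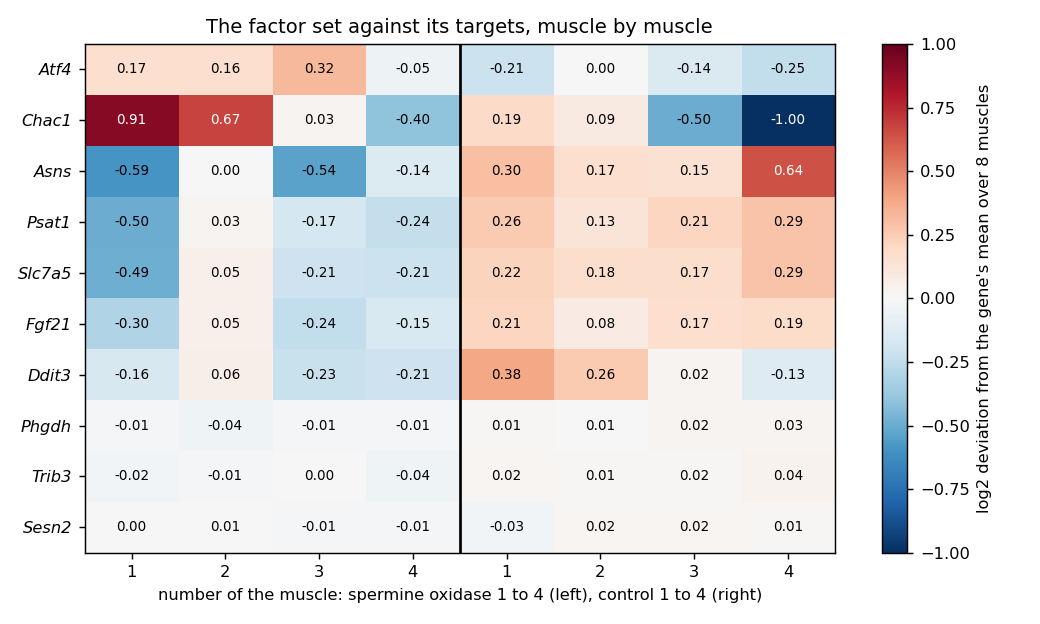
Log2 deviation of each gene (rows) from its own mean over the 8 muscles, for spermine oxidase muscles 1 to 4 (left of the line) and control muscles 1 to 4 (right), coloured from -1 to 1 with the value printed in each cell. Atf4 is above 0 in spermine oxidase muscles 1, 2 and 3 and under 0 in muscle 4 and in all 4 control muscles. Asns, Psat1, Slc7a5 and Fgf21 are under 0 in spermine oxidase muscles 1, 3 and 4 and above 0 in muscle 2 and in all 4 control muscles.

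The titles number the muscles 1 to 4 in each group, and the differences between muscles of equal number were also taken. The treatment protocol speaks of muscles of both legs, but the labels do not say whether muscles of equal number share a mouse. The difference had the same sign for all 4 numbers in 9 of the 10 genes, 2 higher and 7 lower, against 22.4% of all genes, with 11.3% higher and 11.1% lower. Atf4 differed by 0.38, 0.17, 0.47 and 0.20 for numbers 1 to 4. Chac1 differed by 0.72, 0.58, 0.53 and 0.60, a much narrower spread than that of its levels within a group. For Asns the differences were -0.89, -0.17, -0.69 and -0.77, and number 2 was also the smallest for Psat1 (-0.10), Slc7a5 (-0.13) and Fgf21 (-0.031). Ddit3 differed by -0.54, -0.20, -0.25 and -0.079. Sesn2 was the exception, with 1 number higher and 3 lower.

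**Figure D4:**
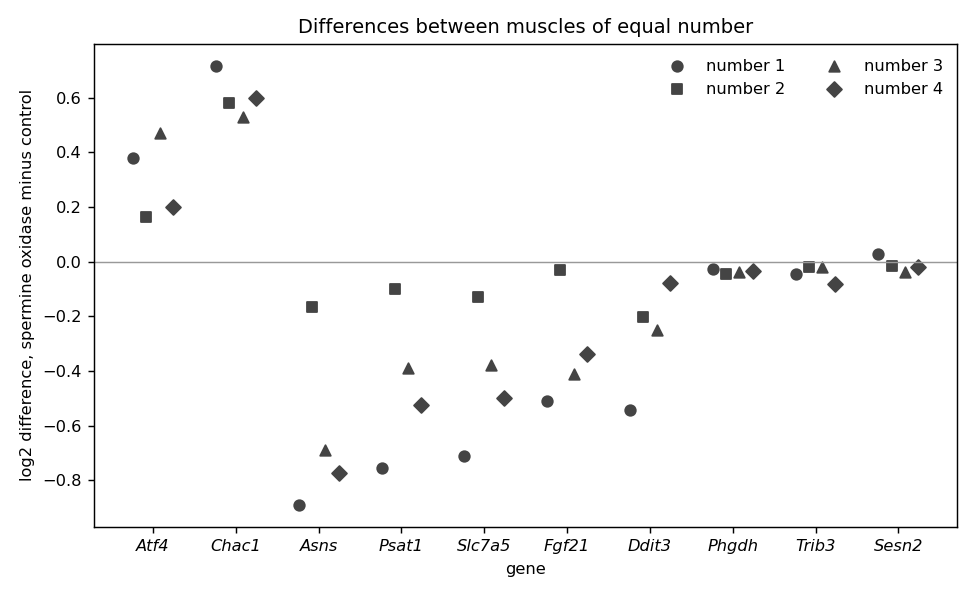
Log2 difference between the spermine oxidase and the control muscle of equal number (vertical axis) for each gene, with a marker for each number. Atf4 and Chac1 lie above 0 for all 4 numbers, 7 genes lie below 0 for all 4, and number 2 gives the smallest differences of Asns, Psat1, Slc7a5 and Fgf21.

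The genes whose 8 values, each less its own mean, lay closest to those of Asns were Cdkn1a, Gamt and Chrna1. Their root mean square distances from Asns over the 8 muscles were 0.099, 0.14 and 0.14, where Asns itself spreads by 0.39. Cdkn1a, the cell cycle inhibitor p21, differed by -0.60 ± 0.22, and Gamt, the creatine synthesis enzyme guanidinoacetate methyltransferase, by -0.70 ± 0.11. Chrna1, the muscle acetylcholine receptor alpha subunit, differed by -0.71 ± 0.23. Slc7a5 ranked 26 and Psat1 ranked 42 of the 16592 genes by this distance, and Fgf21 ranked 105. Ddit3 ranked 1412, Trib3 3223, Phgdh 3846, Sesn2 6113, Atf4 16203 and Chac1 16577. The distance counts the size of a change as well as its shape, and Trib3, Phgdh and Sesn2 hardly varied. The genes closest to Atf4 were Mpnd, Gclm and Decr1, at distances of 0.064, 0.068 and 0.075 against a spread of 0.19 for Atf4. Gclm encodes the modifier subunit of glutamate-cysteine ligase, of glutathione synthesis, and differed by 0.30 ± 0.05, Decr1, a dienoyl-CoA reductase, by 0.31 ± 0.06 and Mpnd by 0.34 ± 0.07. Each of these 6 genes missed an adjusted p of 0.05 in this fit, with limma values of 0.179 to 0.377, but Gamt passed with an intensity trend and robust prior (limma adjusted p = 0.0351).

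Other genes of the response went both ways. Of 97 genes in 6 lists, 83 were measured and 0 reached the limma threshold. At an unadjusted p under 0.05, 10 were higher and 5 lower, or 18.1% against 11.0% of all genes, and the median difference of the 83 was 0.00084. The medians of the 6 lists ran from -0.038 to 0.020.

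Among 13 measured regulators of eIF2, 2 were higher and 1 lower at an unadjusted p under 0.05, or 23.1% against 11.0% of all genes. Eif2s2, the beta subunit of eIF2, stood out at 11.19 ± 0.13 in spermine oxidase muscles and 10.60 ± 0.09 in control muscles (SD, n = 4 each), a difference of 0.59 ± 0.07 with a limma adjusted p = 0.147, and of 0.42 ± 0.09 on its second probe. With an intensity trend and robust prior the limma adjusted p of Eif2s2 was 0.0351, and without spermine oxidase muscle 2 it was 0.0425. Of the subunits of eIF2B, the exchange factor of eIF2, Eif2b5 differed by 0.17 ± 0.05 on its brightest probe, by 0.041 ± 0.07 and 0.049 ± 0.06 on the others, and Eif2b2 by -0.14 ± 0.05. The 4 eIF2 kinase genes differed by -0.15 to -0.0062, each by less than its standard error. Ppp1r15a, which encodes the stress-induced phosphatase subunit GADD34, differed by 0.15 ± 0.13.

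Of 12 measured partner factors, Atf5, a close relative of Atf4, differed by 0.21 ± 0.05 (limma adjusted p = 0.252) without overlap of the groups. Atf3, a factor that ATF4 induces, went the other way at -0.21 ± 0.08, and Nfe2l2, the oxidative stress factor NRF2, differed by -0.079 ± 0.03. Cebpb, a binding partner of ATF4, differed by -0.040 ± 0.06. Amino acid carriers other than Slc7a5 differed little. Slc38a2, a carrier of small neutral amino acids, differed by -0.16 ± 0.09 and by 0.0064 ± 0.09 on its second brightest probe, and Slc7a1 (0.073 ± 0.03) and Slc7a3 (-0.082 ± 0.03), carriers of cationic amino acids, lay near the floor.

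Of 13 measured enzymes of serine, one-carbon and amino acid metabolism, 2 were higher at an unadjusted p under 0.05 and 0 lower. That is 15.4%, against 11.0% of all genes. These were the transaminases Got1 (0.39 ± 0.10) and Gpt2 (0.35 ± 0.10), while Mthfd2, a mitochondrial folate enzyme, differed by -0.13 ± 0.09. Of 18 measured tRNA synthetases, 16.7% passed that threshold. Iars (0.22 ± 0.06), for isoleucine, and Lars (0.14 ± 0.04), for leucine, were higher and Gars (-0.22 ± 0.07), for glycine, was lower. Among 18 further targets, 2 were higher at that threshold, or 11.1%, which is near the share of all genes. These were Vldlr, a lipoprotein receptor (0.57 ± 0.19), and Herpud1, of protein degradation at the endoplasmic reticulum (0.21 ± 0.05, and 0.20 ± 0.05 on its second probe). Vegfa, the vascular growth factor, differed by 0.27 ± 0.13, by 0.15 without spermine oxidase muscle 1, and by 0.11 ± 0.11 and -0.011 ± 0.02 on its other probes. All the genes of this paragraph missed an adjusted p of 0.05 in this fit, with limma values of 0.222 to 0.655.

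**Figure D5:**
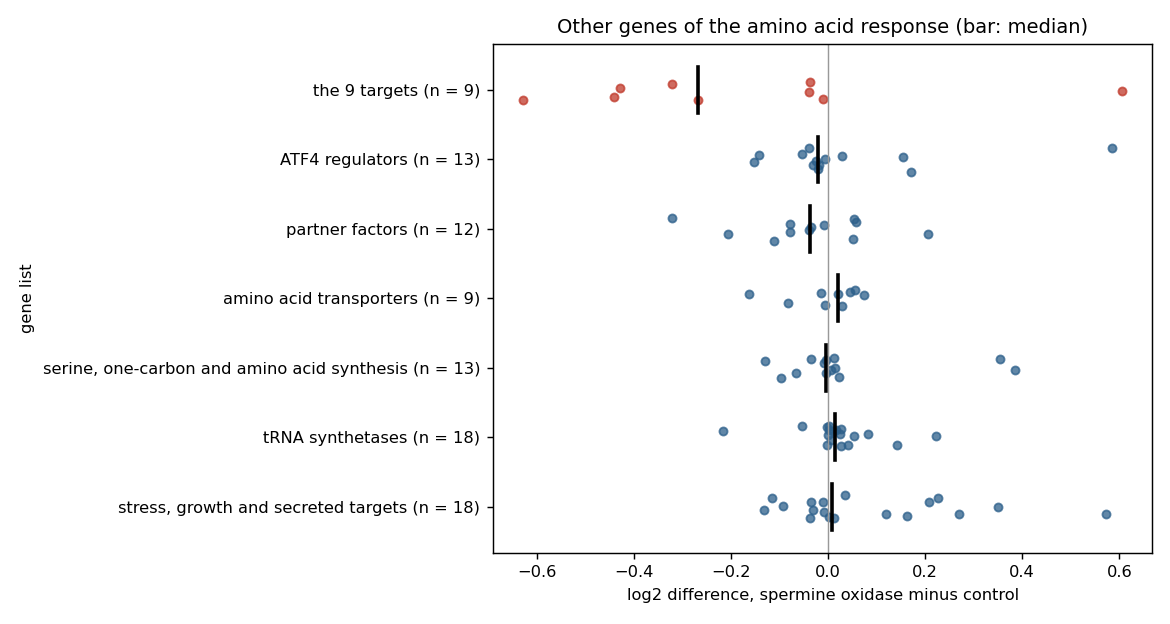
Log2 difference (horizontal axis, spermine oxidase minus control) of each measured gene in the 6 lists and of the 9 targets, 1 point per gene, with black bars at the medians. The median of the targets is -0.27 and those of the 6 lists lie between -0.038 and 0.020.

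Facts of the whole series bear on these values as follows. The plasmid gene Smox was higher in all 4 spermine oxidase muscles than in any control muscle on each of its 5 probes, 2.23-fold on the brightest and up to 10.8-fold on the others. The arrays correlated at 0.975 to 0.997 across probes, and their medians were all 8.33. Markers of the labelled tissue were high, as Mylpf, a fast myosin light chain, read 15.20 in both groups and Myh4, the fast 2B myosin heavy chain, read 14.30 in spermine oxidase muscles and 13.96 in control muscles. Markers of satellite cells and regenerating fibres were mostly lower in spermine oxidase muscles, as the 4 lower targets were. Within the spermine oxidase group the markers did not follow the order of these targets, though muscles 1 and 3 were lowest for the markers, Asns and Fgf21. From low to high the control muscles ran 3, 2, 1 and 4 for the markers, as for Asns and Slc7a5. They ran 2, 3, 1 and 4 for Psat1 and 2, 3, 4 and 1 for Fgf21. The summed linear signal of the markers was 40901, 50825, 38350 and 64321 in spermine oxidase muscles 1 to 4. In control muscles 1 to 4 it was 76657, 75983, 70248 and 85214. Of 8 measured, 7 were lower, Pax7 and Myf5 were at the floor, and the summed linear signal ran from 38350 to 64321 in spermine oxidase muscles and from 70248 to 85214 in control muscles, led by Myh8, the perinatal myosin (-1.28 ± 0.38), and Myl4, the embryonic light chain (-0.87 ± 0.18). The means of the 5 endothelial markers were higher, with sums of 2759 to 3091 in spermine oxidase muscles and 2493 to 2612 in control muscles. Only Pecam1 and Tek separated the groups, and Kdr, at the floor, differed by 0.015 ± 0.02. The sums of the 5 measured macrophage markers overlapped at 10452 to 16657 in spermine oxidase muscles and 13967 to 23260 in control muscles. The part of these cell type markers in the differences of the ATF4 targets was not tested.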

How the data were processed

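Total RNA of 8 muscles was amplified, labelled with biotin and measured on 8 bead arrays, per the labels' protocols. The deposited log2 values, as their range of 8.10 to 15.29 shows, were already brought to 1 common distribution by the authors, since arrays differed by at most 0.155 at equal rank. How this was done is not given in the sources used here. Its scale has a floor near 8.10, which may compress the changes of dim genes. For arrays no depth is stated, and their number limits the precision.

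GEO's platform annotation gave 1 gene for 23978 of 25697 probes, none had several, and 1719 were unnamed. Entrez identifiers of 23962 were found in the RefSeq table. The groups were compared with lmFit and eBayes of limma 3.58.1 under R 4.3.3 (two-sided, 4 against 4, Benjamini-Hochberg over 16593 genes, threshold 0.05), after a test on simulated data. Every p-value in the text comes from limma. The members and gene lists were chosen with earlier results of these data known. The rule for named genes takes the members, Smox, the 3 smallest p per pathway list, and the brightest and smallest-p markers per cell type list. It also takes the 3 genes nearest to Asns and to Atf4. Not all cell type markers so taken are named in the text. Pax7, Myf5, Kdr, Plin1 and Fabp4 lie outside the rule and are named to show signal at the floor. Slc3a2, Cebpb, Ppp1r15a and the eIF2 kinases were added after their values were seen, as close partners of the members.

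Equal numbers were not taken as pairs. Deviations from the group means correlated across genes at 0.60, 0.67 and 0.60 for numbers 1, 3 and 4, but at -0.14 for number 2. Muscles of different number correlated at -0.46 to 0.37, so numbers 1, 3 and 4 lay above all of these. Alternatives were the replicate block, quantile and median scaling, averaging the probes of a gene, dropping the dimmest 40% of probes, a trend with robust prior, array weights (statmod 1.5.0), an offset of 16 on the linear scale and dropping each muscle. Leaving out control muscle 4 and spermine oxidase muscle 1 together, and fitting every probe, were chosen after seeing the data. Plots used matplotlib 3.10.9 in Python 3.11.15.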

Additional observations from a re-analysis of the deposited data

Results flagged for a closer look

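Phgdh in spermine oxidase muscle 2 read 8.36, below the 8.38 to 8.39 of the other 3 spermine oxidase muscles, and its gap took up most of the range of the group. The values lie near the floor of the scale, and among the 28 groups of 4 that were checked about 1 in 20 would stand out in this way by chance.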

How the results depend on the processing

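All 10 genes kept their sign wherever an alternative changed the estimate (133 values in 14 of 17 alternatives), and the 25 other genes followed kept theirs. The number as a replicate block, for which no pairing is established, gave 266 genes past an adjusted p of 0.05 with limma and 1 of the 10 members, Chac1 (adjusted p = 0.0159), besides Eif2s2 and Gamt (0.0159 each), Vldlr (0.0336) and Smox (0.0410). With the block Atf4 had an adjusted p of 0.0938 and Asns of 0.0968. A trend with robust prior gave 8 genes, and leaving out each muscle gave 0 to 14, the 14 without spermine oxidase muscle 2. No member was among these, but Eif2s2 was in both and Gamt in the first. Every other alternative gave 0 genes. The count of members without overlap was 6 to 7 and that of targets apart from Atf4 was 6 to 8. Leaving out muscles cannot make separated groups overlap, so neither count could fall there. The offset keeps the order of values within a gene, so it could not change the first count. The block, the trend with robust prior and the array weights leave the values as they are. The mean of its probes gave Asns -0.33, since the third probe lies at the floor. Leaving out each muscle, Chac1 ranged from 0.37 without control muscle 4 to 0.84, and Asns from -0.73 to -0.52. Leaving out control muscle 4 and spermine oxidase muscle 1 together, which for Asns, Psat1, Slc7a5 and Chac1 are the extremes of their groups and had to shrink the difference, gave Chac1 0.17, Asns -0.43, Psat1 -0.33, Slc7a5 -0.31 and Fgf21 -0.27. Phgdh, Trib3 and Sesn2 are limited by signal at the floor.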

Other observations

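The order of the spermine oxidase muscles by Smox depended on the probe. The probe ILMN_2608052 read 11.87, 13.29, 12.40 and 11.53 in spermine oxidase muscles 1 to 4, against 9.07, 8.85, 8.90 and 8.52 in control muscles 1 to 4. Spermine oxidase muscle 2, with the highest signal on this probe, had the highest Asns, Psat1, Slc7a5 and Fgf21 of its group. On the brightest Smox probe, ILMN_1247267, the values were 12.58, 11.56, 12.02 and 11.60 in spermine oxidase muscles 1 to 4, against 11.15, 10.92, 10.90 and 10.17 in control muscles 1 to 4. On this probe the spermine oxidase muscles ran 1, 3, 4 and 2 from high to low, which is the inverse of their order for Asns and Fgf21. For Psat1 and Slc7a5 they ran 1, 4, 3 and 2 from low to high. Control muscle 1 was the highest control both on this probe and for Fgf21. Control muscle 4 was the lowest control on both Smox probes and the highest for Asns, Psat1 and Slc7a5. Which of these probes reads the message of the plasmid was not tested.

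The 4 measured adipocyte genes and the 2 measured red blood cell genes were also higher on average, some by little. Plin1 (0.048 ± 0.02) and Fabp4 (0.010 ± 0.02) lay at the floor, and Alas2 differed by 0.093 ± 0.06. Adiponectin, Adipoq, read 9.56 ± 0.10 in spermine oxidase muscles and 9.02 ± 0.34 in control muscles (SD, n = 4 each), a difference of 0.54 ± 0.16, and the alpha globin Hba-a1 differed by 0.71 ± 0.21, with limma adjusted p-values of 0.284 and 0.286.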
